A study of Mus musculus with 12 samples.

Results

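De novo lipogenesis is the making of fatty acids from acetyl-CoA. The 10 genes described here were the lipogenic enzymes Acly, Acaca, Acacb, Fasn, Elovl6, Scd1 and Me1, the transcription factor gene Srebf1, the lipid droplet lipase gene Pnpla3 and Thrsp. They were chosen by name, with earlier results of these data known. The FPKM, fragments scaled to transcript length and to the size of the library, of all listed protein-coding transcripts of a gene were summed. All 10 genes were found, through 27 of the 29883 listed transcripts, among 14188 genes in all. No filter on low values was applied.

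In the liver, glucose and insulin switch this pathway on. Citrate leaves the mitochondria and is split to acetyl-CoA, acetyl-CoA is carboxylated to malonyl-CoA, fatty acid synthase builds palmitate, and elongation and desaturation give stearate and oleate for storage as triglyceride. The transcription factors SREBP-1c and ChREBP drive these genes, and thyroid hormone acts on several of them, of which Thrsp is the classical responsive gene.

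The RNA came from the livers of 12 male C57BL mice, 6 in the Pien Tze Huang (PZH) group and 6 in the control group, collected at week 8. The labels spell the strain C57BL/8, and the methods of the study C57BL/6J. The mice were 6 weeks old at the start, and both groups received carbon tetrachloride (CCl4) in corn oil, which injures hepatocytes, by intraperitoneal injection 2 times per week at 10 µl/g. The PZH group was also given PZH, a traditional Chinese medicine, by gavage at 0.25 mg/g every day, and the control group double distilled water. Mice without CCl4 are not among the samples analysed here, so every comparison is between 2 groups of injured livers. The groups were not equally injured. The paper reports more liver injury by serum indices in the control group at the time of collection, and less collagen staining under PZH. The degree of injury therefore went together with the treatment in every comparison, and its part in the changes was not tested.

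The samples carried the liver's markers. The summed FPKM of 7 hepatocyte genes, Alb among them, was 44245 to 61671 under PZH and 25477 to 40257 in controls, and the tests called 4 of the 7 genes higher and 1 lower (5 and 0 after the median-ratio scaling described next). Over all genes the tests called 12.7% higher and 32.1% lower. Of 7 adipocyte genes only Adipoq, Cfd and Adrb3 were listed, with a summed FPKM of 0.538 to 1.62 under PZH and 0.150 to 3.37 in controls. Adipoq was listed at 0 in most mice of each group and reached at most 0.935, while Adrb3, at a mean of 1.02 against 0.249 FPKM, was called higher. The median log2 change of all 14188 genes was -0.11, and dividing each mouse by a median-ratio scale factor brought it to -0.001. Changes are given on the deposited scale, with the rescaled value or count beside those it altered. In bulk liver RNA, fewer cells of a type and less RNA per cell cannot be told apart.

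The promoters of Thrsp, Fasn and Srebf1 are shown because they belong to the most changed member, the central synthase and the regulator. The sequences are those of RefSeq on GRCm38.p6, each the 250 bases before the RefSeq start site on the minus strand, at chr7:97417551-97417800 for Thrsp, chr11:120824548-120824797 for Fasn and chr11:60210472-60210721 for Srebf1. The Srebf1 window lies 6 bases from the start of Srebf1-207, and the annotated start of Thrsp-201 in GENCODE M21 lies 180 bases upstream of the RefSeq start, inside the window. Capitals mark the letters CCAAT on either strand, the core of the box bound by the factor NF-Y. In Fasn a pair of matches on opposite strands overlap.
Thrsp: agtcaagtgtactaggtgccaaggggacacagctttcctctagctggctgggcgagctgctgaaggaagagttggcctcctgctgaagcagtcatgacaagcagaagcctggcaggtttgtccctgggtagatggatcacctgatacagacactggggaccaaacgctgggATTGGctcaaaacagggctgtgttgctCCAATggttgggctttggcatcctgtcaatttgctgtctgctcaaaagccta
Fasn: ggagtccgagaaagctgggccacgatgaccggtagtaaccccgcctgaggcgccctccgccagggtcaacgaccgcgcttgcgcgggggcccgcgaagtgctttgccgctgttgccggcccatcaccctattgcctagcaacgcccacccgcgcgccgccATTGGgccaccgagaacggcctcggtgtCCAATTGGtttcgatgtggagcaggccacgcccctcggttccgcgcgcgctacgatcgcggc
Srebf1: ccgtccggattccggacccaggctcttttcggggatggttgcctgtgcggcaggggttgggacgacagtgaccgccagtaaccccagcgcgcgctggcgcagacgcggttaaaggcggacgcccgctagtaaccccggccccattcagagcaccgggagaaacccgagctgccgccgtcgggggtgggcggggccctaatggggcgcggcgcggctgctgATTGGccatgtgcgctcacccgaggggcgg

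Of the members, 9 had a promoter window in the RefSeq table, 12 windows in all, each reaching from 250 bases before to 50 after a start site. CCAAT stood on either strand in 8 of the 12 windows, of Thrsp, Fasn, Acacb, Acly, Me1, Srebf1 and Pnpla3, against 37.4% of all 32851 windows. GGGCGG, a letter form of the Sp1 box, stood in 5 of the 12, against 35.7% of all windows. The E-box CACGTG and TCACNCCAC, a letter form of the sterol regulatory element, stood in 0 of the 12, against 7.15% and 1.24% of all windows. These are matches of letters and not binding sites.

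The question of the comparison was which lipogenic genes differ between PZH-treated and untreated CCl4 livers. PZH mice had higher levels of 7 of the 10 members, namely Thrsp, Acacb, Elovl6, Srebf1, Acly, Fasn and Acaca, and 0 were lower (limma on log2(FPKM + 1), Benjamini-Hochberg adjustment over all genes, adjusted p under 0.05), nor was any lower at an unadjusted p under 0.05. By the same rule 12.7% of all genes were called higher and 32.1% lower. With a change of at least 2-fold as well, 4 of 10 members were called, against 1.49% of all genes. In these 4, Thrsp, Acacb, Elovl6 and Srebf1, every PZH mouse lay above every control mouse, which held in 6.46% of all genes. The median log2 change of the members was 0.72. After median-ratio scaling it was 0.91, and 8 members were called higher, with Scd1 added.

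**Figure D1:**
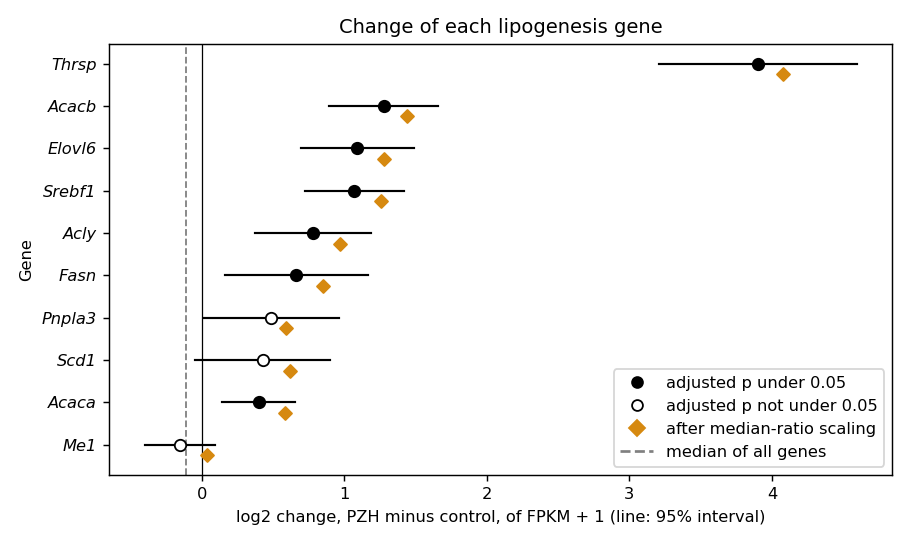
Difference in log2(FPKM + 1) between the PZH and control groups for each gene (circles, with the 95% interval as a line), the same after median-ratio scaling (diamonds) and the median of all 14188 genes (dashed line). Filled circles are adjusted p under 0.05. Thrsp stands apart at 3.90, a group of genes lies near 1, and Me1 lies near the median of all genes.

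Thrsp, which encodes a nuclear protein (Spot 14) of lipogenic tissues that thyroid hormone and carbohydrate induce, changed most. Its level ran from 86.4 FPKM over a median of 152 to 256 in the PZH mice. In the control mice it ran from 5.19 over a median of 7.40 to 18.3. The lowest PZH mouse thus lay above the highest control mouse by a wide margin. The group means were 153 ± 67.2 and 9.35 ± 4.94 FPKM (SD, n = 6 each), a 16.4-fold difference, and the log2 change was 3.90 (SE 0.32, adjusted p = 8.5e-06). Its rank was 3 among all 14188 genes by log2 change, and it kept its call in all 18 alternatives, with a log2 change between 3.73 and 4.10. Thrsp lies on the minus strand of chr7:97412938-97417730 and was listed with 1 transcript, Thrsp-201 (1277 nt, 2 exons).

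Thrsp rose more than every other member. In each mouse the log2 ratio of Thrsp to the other gene was formed, and for all 9 ratios the PZH mice lay above the control mice. The difference was smallest against Acacb, at 2.62, and largest against Me1, at 4.05. Each of the 9 tests gave the smallest p that the labellings of 12 mice allow (two-sided exact permutation test, p = 0.0022, 0.0022 after adjustment over the 9). All 9 ratios share the values of Thrsp, the member with the largest change. The tests therefore largely restate its separation and are not 9 separate results. The rank of Thrsp among the members also moved. Ordered by mean FPKM it came after Elovl6 and before Acacb among the controls, at rank 8, and its values overlapped with those of both. Under PZH only Scd1 was above it, without overlap, and Acly, next below, overlapped with it.

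**Figure D2:**
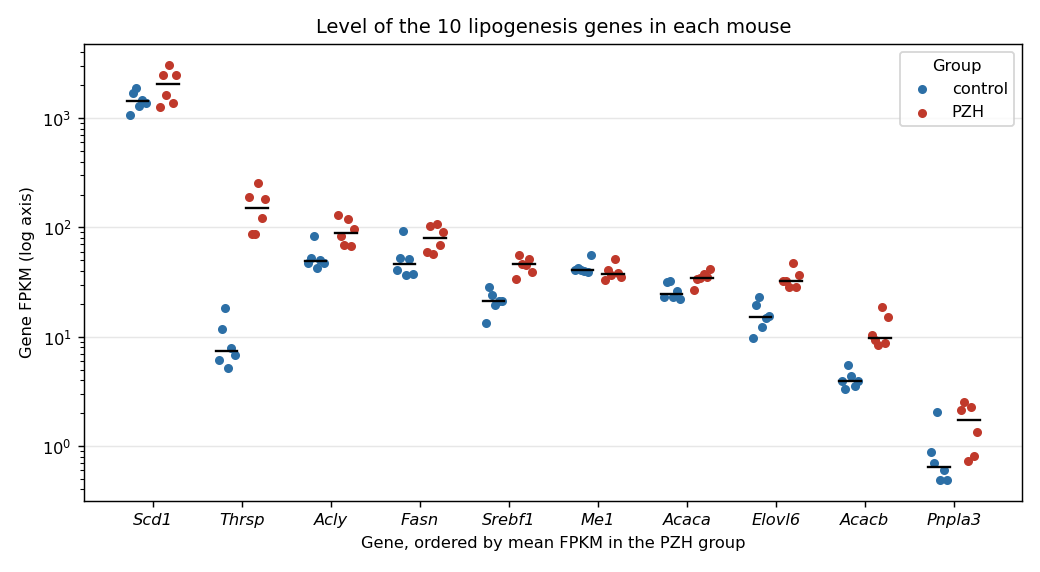
FPKM of each gene in each of the 12 mice, on a log axis, with genes ordered by their mean in the PZH group and black bars at the group medians. The PZH and control points are apart for Thrsp, Srebf1, Elovl6 and Acacb and overlap for the other genes. For Me1 most PZH points lie below all control points.

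Srebf1 encodes SREBP-1, the transcription factor that activates the synthesis genes in response to insulin. It ran from 33.8 over 45.9 to 56.0 FPKM under PZH and from 13.3 over 21.3 to 28.2 in controls. The groups did not overlap. The log2 change was 1.07 (SE 0.16, adjusted p = 0.00021), a 2.13-fold difference of the means.

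The transcripts of Srebf1 begin at separate first exons. Srebf1-201 starts at position 60220604 of chromosome 11, at the upstream promoter that is used by the SREBP-1a form, and Srebf1-207 starts at 60210465. Srebf1-207 had 8.31 to 15.0 FPKM under PZH and 1.91 to 5.46 in controls, and its log2 change was 1.25 (adjusted p = 0.00099 over all transcripts). Srebf1-203, the most abundant, which starts further into the gene at 60207188, changed by 1.12 (adjusted p = 0.00075). Both rose without overlap between the groups. Srebf1-201 had 4.54 to 11.1 FPKM against 4.58 to 7.23, a log2 change of 0.49 that did not pass (adjusted p = 0.065, 95% interval 0.12 to 0.86). Whether its change differs from that of Srebf1-207 was not tested.

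Acly encodes ATP citrate lyase, which supplies the acetyl-CoA. In the PZH mice it ran from 67.2 over 89.4 to 129 FPKM. In the control mice it ran from 42.1 over 48.8 to 82.7, and 4 of the 6 PZH mice lay above that highest value. The log2 change was 0.78 (SE 0.19, adjusted p = 0.0049), a 1.74-fold difference of the means. The gene's sum hid a different estimated makeup of transcripts in 2 mice. Whether the transcripts themselves or the assignment of reads to them differed was not tested. Acly-207 made up 19.0% of the gene in PZH 4 and 27.3% in control 1, against 90.6% to 94.1% in the other mice. In those 2 mice Acly-201 was listed at 51.1 and 16.6 FPKM, against at most 0.065 in any other mouse. Acly-207 begins downstream of the first exon that Acly-201 and Acly-203 share, and no single Acly transcript passed the test although the gene did.

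Acaca and Acacb encode the acetyl-CoA carboxylases. The product of Acaca makes malonyl-CoA in the cytosol for synthesis, and that of Acacb makes it at the mitochondrial surface, where it restrains the import of fatty acids for oxidation. Acacb ran from 8.41 over 9.83 to 18.5 FPKM under PZH and from 3.34 over 3.94 to 5.51 in controls. There was no overlap, and the log2 change was 1.28 (SE 0.18, adjusted p = 0.00013), 2.86-fold by the means. Acaca ran from 26.7 over 34.7 to 41.5 FPKM against 22.2 over 24.5 to 32.1. Only PZH 1 lay within the control range, and the log2 change was 0.40 (SE 0.12, adjusted p = 0.015), 1.33-fold by the means.

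Acaca was the only 1 of 6 members with several listed transcripts in which the share of the leading transcript differed. Under PZH Acaca-201 made up 80.4% ± 1.23 of the gene, and in controls 74.4% ± 7.55 (SD, n = 6 each, two-sided exact permutation test, p = 0.0043, 0.026 after adjustment over the 6). Control 2 was low at 59.2%, the other controls were between 76.0% and 78.9%, and the PZH mice between 78.1% and 81.6%. Without control 2 the difference of the means shrank to 2.94 percentage points, and the call was lost when any of PZH 1, 2, 4, 5 or 6 was left out. Acacb-201, the leading Acacb transcript, passed by level (log2 change 1.58, adjusted p = 0.0093), with 0.287 FPKM in control 1 against 2.36 to 3.29 in the other controls. Acacb-202, which starts upstream, was listed at 3.28 FPKM in control 1 and 2.62 in control 3, and at 2.30 in PZH 3 and 3.56 in PZH 5, against at most 0.989 in the other mice.

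**Figure D3:**
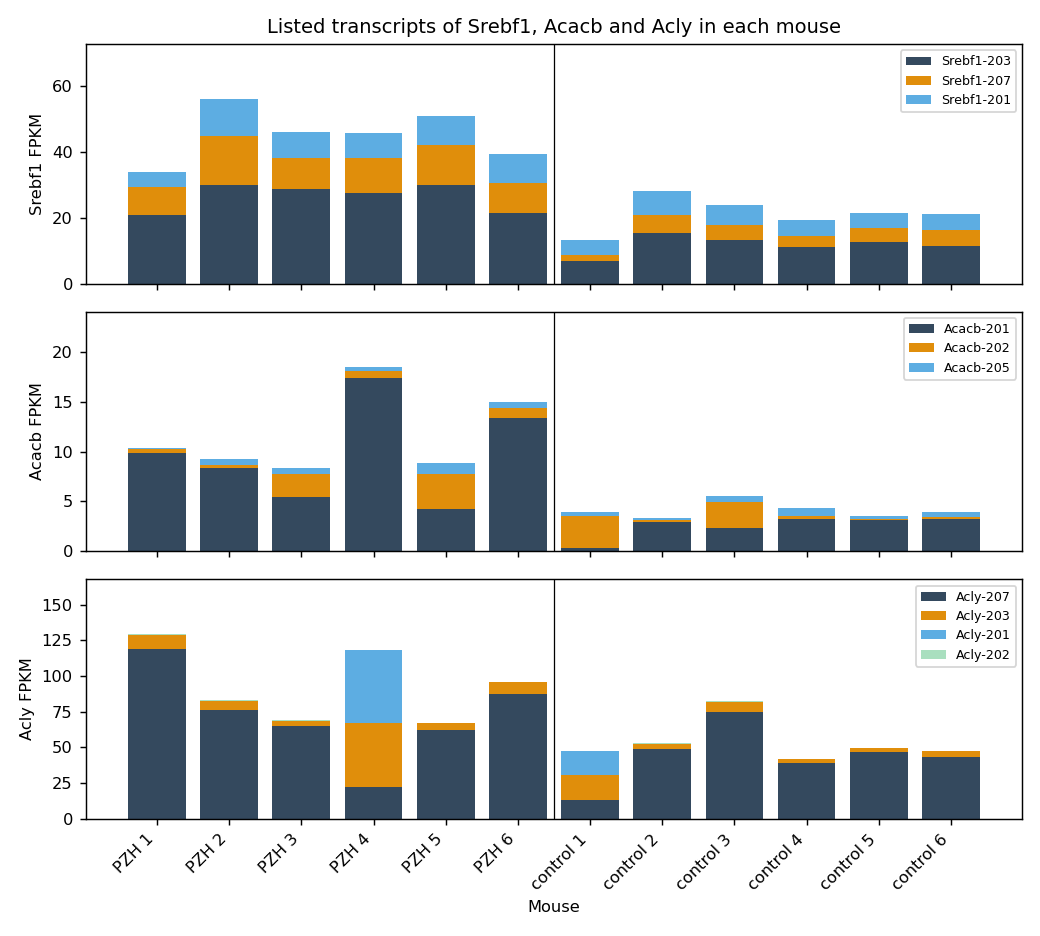
Stacked bars, from 0, of the FPKM of each listed transcript of Srebf1, Acacb and Acly in each mouse, with the 6 PZH mice on the left. The full heights separate the groups for Srebf1 and Acacb. In PZH 4 and control 1 less of Acly is listed as Acly-207 and more as Acly-201 and Acly-203.

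Fasn encodes fatty acid synthase, which joins the malonyl units to palmitate. It ran from 56.6 over 80.6 to 107 FPKM in the PZH mice. The control mice ran from 36.4 over 46.3 to 92.5, where control 3 was the highest and the other controls reached at most 52.8. Only 2 of the 6 PZH mice lay above control 3. The log2 change was 0.66 (SE 0.23, adjusted p = 0.033), 1.56-fold by the means. The call was not firm. It was lost when any of PZH 2, 4 or 6 or control 1, 4, 5 or 6 was left out (log2 change 0.58 to 0.68, adjusted p = 0.051 to 0.074). Over all 18 alternatives the adjusted p lay between 0.0033 and 0.076.

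Elovl6 encodes the elongase that turns palmitate into stearate. Under PZH it ran from 28.3 over 32.4 to 46.9 FPKM, and in controls from 9.83 over 15.0 to 23.2. The groups were apart, with a log2 change of 1.09 (SE 0.18, adjusted p = 0.00045), 2.16-fold by the means. Elovl6-201, the leading transcript, carried 91.9% to 95.3% of the gene in the PZH mice and rose by 1.14 (adjusted p = 0.0017).

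Scd1 encodes the desaturase that makes oleate from stearate, and it was by far the most abundant member. It made up 71.2% to 87.6% of the summed FPKM of the 10 genes in each mouse. Under PZH it ran from 1275 over 2050 to 3080 FPKM and in controls from 1074 over 1428 to 1890. The spread was wide in the PZH group, where 3 of 6 mice lay above every control. The log2 change of 0.43 did not pass (SE 0.22, 95% interval -0.05 to 0.90, adjusted p = 0.13). After median-ratio scaling it was 0.62 and passed (adjusted p = 0.043), and over all 18 alternatives the adjusted p lay between 0.043 and 0.28.

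Me1 encodes malic enzyme, a source of the NADPH that synthesis uses, and was the only member with a negative log2 change on the deposited scale. It ran from 32.9 over 37.2 to 51.5 FPKM under PZH and from 39.4 over 40.7 to 56.4 in controls. Most PZH mice lay below every control, and only PZH 2 at 40.4 and PZH 4 at 51.5 FPKM were within the control range. Only 1 PZH mouse lay above the control median. The log2 change was -0.15 (SE 0.11, 95% interval -0.40 to 0.09, adjusted p = 0.30), and after median-ratio scaling it was 0.04 (adjusted p = 0.83). Over all 18 alternatives the adjusted p lay between 0.076 and 0.83.

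Pnpla3, the adiponutrin gene, encodes a lipase on lipid droplets and was the least abundant member. Its values were 0.732, 1.74 and 2.50 FPKM (lowest, median and highest) under PZH and 0.488, 0.648 and 2.05 in controls. Control 3 lay apart from the other controls, which reached at most 0.880. The log2 change was 0.49 (SE 0.22, adjusted p = 0.086) on a scale that understates changes at such low levels. Without control 3 it was 0.64 (adjusted p = 0.017), and leaving out PZH 3 or PZH 5 also brought it past the threshold (adjusted p = 0.041 and 0.049). Over all 18 alternatives the adjusted p lay between 0.017 and 0.17.

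The mice differed within each group, and some mice were extreme in several members. Control 3 had the highest value of the controls in 8 of 10 members, all but Me1 and Srebf1. In the PZH group PZH 4 was the highest in 6 members, PZH 3 the lowest in 5 and PZH 1 the lowest in 4. The order was not shared by all members. PZH 1 was the lowest for Srebf1 at 33.8 FPKM but the highest for Acly at 129, and had 188 FPKM of Thrsp. The members are genes of the same libraries, so this is a description of 12 mice and not a set of separate results. Without control 3, 8 of 10 members were called higher, and leaving out any other mouse gave 6 to 8.

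**Figure D4:**
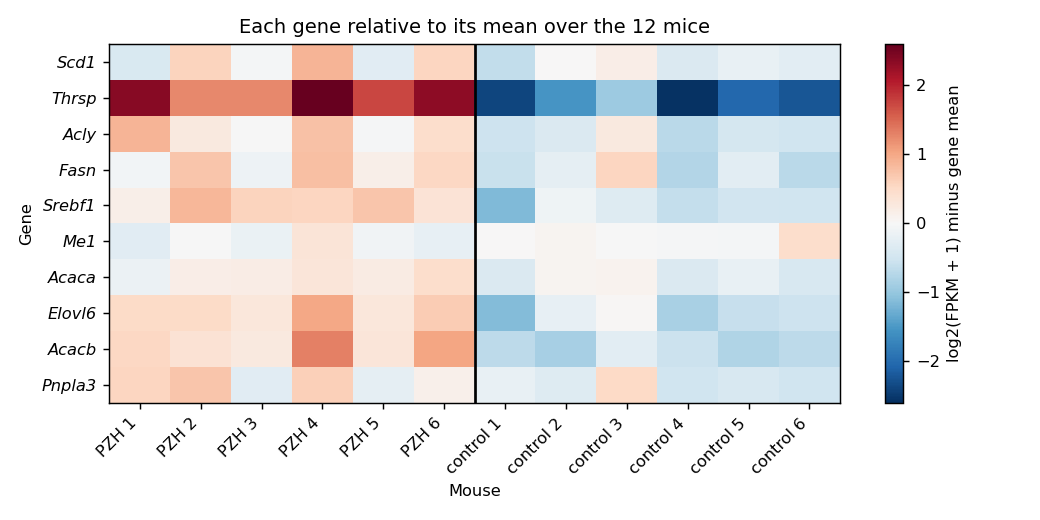
Colour shows log2(FPKM + 1) of each gene in each mouse minus that gene's mean over the 12 mice. Thrsp has the strongest colours, PZH 4 is red across most genes, and control 3 is the palest or reddest control in most genes.

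Transcript by transcript, 6 of the 27 listed were called higher under PZH and 0 lower (0 also at an unadjusted p under 0.05), against 5.73% and 14.0% of all 29883 transcripts. They were Thrsp-201, Acacb-201, Elovl6-201, Srebf1-203, Srebf1-207 and Acaca-201, which rose by 0.51 (adjusted p = 0.0086). Fasn-201 changed by 0.65 and did not pass in this larger set (adjusted p = 0.070). Of the 27 transcripts, 8 had a mean under 1 FPKM in both groups.

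The genes whose profile over the 12 mice was closest to that of Thrsp were found by the mean absolute difference in log2(FPKM + 1), each gene centred on its own mean, among 10938 genes with a mean of at least 1 FPKM, the 10 members being set aside. They were Upp2, a uridine phosphorylase gene, at 0.585, Car14, a carbonic anhydrase gene, at 0.603, Keg1 at 0.614, Hsd3b3, a hydroxysteroid dehydrogenase gene, at 0.645, and Cyp2c55, a cytochrome P450 gene, at 0.646. Upp2 averaged 99.0 FPKM under PZH and 2.63 in controls. In each of these genes the groups were apart, as the measure requires of a gene close to Thrsp.

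The genes around the pathway did not move as a block. Of 113 measured genes in 6 lists, 38 (33.6%) were called higher and 20 (17.7%) lower, against 12.7% and 32.1% of all genes. After median-ratio scaling the counts were 48 and 13, while over all genes the scaling turned 1798 higher and 4560 lower into 2807 and 2739.

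Of the 18 regulators of lipogenesis, 6 were higher and 7 lower, with a median log2 change of 0.00, and after median-ratio scaling 8 were higher and 4 lower. On the deposited scale 12.7% of all genes were called higher and 32.1% lower. Mlxipl, which encodes the carbohydrate-sensing factor ChREBP, rose from 27.1 to 61.4 FPKM in the group means (log2 change 1.12, adjusted p = 0.00042). Mlx of the same list, named after its values were seen, fell by 0.54 (adjusted p = 0.0027). After median-ratio scaling Mlx was at -0.36 and still passed (adjusted p = 0.047). Ppargc1b, a coactivator gene, rose by 0.84 and Insig1, whose product holds SREBP in the endoplasmic reticulum, by 0.69. Pparg fell by 0.78, Trib1, an adaptor gene for protein degradation, by 0.67, and Insig2 by 0.64. After median-ratio scaling Insig2 was at -0.45 and no longer passed (adjusted p = 0.076). The thyroid hormone receptor genes Thrb and Thra and the Thrsp relative Mid1ip1, named here after their values were seen, rose by 0.56, 0.38 and 0.57 (adjusted p = 0.012, 0.041 and 0.019). Dio1, which encodes a deiodinase that activates thyroid hormone and is named on the same terms, fell by 0.39 (adjusted p = 0.046), and after median-ratio scaling it was at -0.22 and did not pass (adjusted p = 0.27).

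Of the 13 genes of carbon and NADPH supply, 5 were higher and 2 lower (7 and 2 after median-ratio scaling), with a median of 0.10. The highest were Acss2, which makes cytosolic acetyl-CoA from acetate, at 1.69 (37.1 against 11.0 FPKM), and the pyruvate kinase gene Pklr at 1.16 (89.3 against 40.9 FPKM). The lower ones were Pgd, which fell by 0.67, and G6pdx, which fell by 0.54, the NADPH-yielding steps of the pentose phosphate pathway. Like Me1, these encode NADPH sources. Idh1, which encodes a further NADPH source and is named after its values were seen, rose by 0.49 (adjusted p = 0.011).

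Of the 11 other elongases and desaturases, 4 were higher and 0 lower (6 and 0 after median-ratio scaling), with a median of 0.27. Fads2 and Fads1, desaturases of polyunsaturated fatty acids, rose by 0.53 and 0.47. Tecr, the reductase of the elongation cycle, rose by 0.51.

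Triglyceride synthesis and lipid droplet genes went both ways, with 7 of 27 higher and 7 lower (9 and 6 after median-ratio scaling) and a median of 0.01. Acsl1, which activates fatty acids, rose by 1.27, the droplet protein gene Plin5 by 0.81 and Gpam, the first acyl transfer to glycerol phosphate, by 0.75. Plin2, the main droplet coat protein gene of hepatocytes, fell by 1.99 on the log2 scale, from a mean of 477 to 116 FPKM (adjusted p = 7.2e-06). Hilpda, which inhibits droplet lipolysis, fell by 1.89, and Cidec, which enlarges droplets, fell by 0.91. These 3 fell in the same mice in which 7 lipogenesis genes were called higher. Over all genes 32.1% were called lower.

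**Figure D5:**
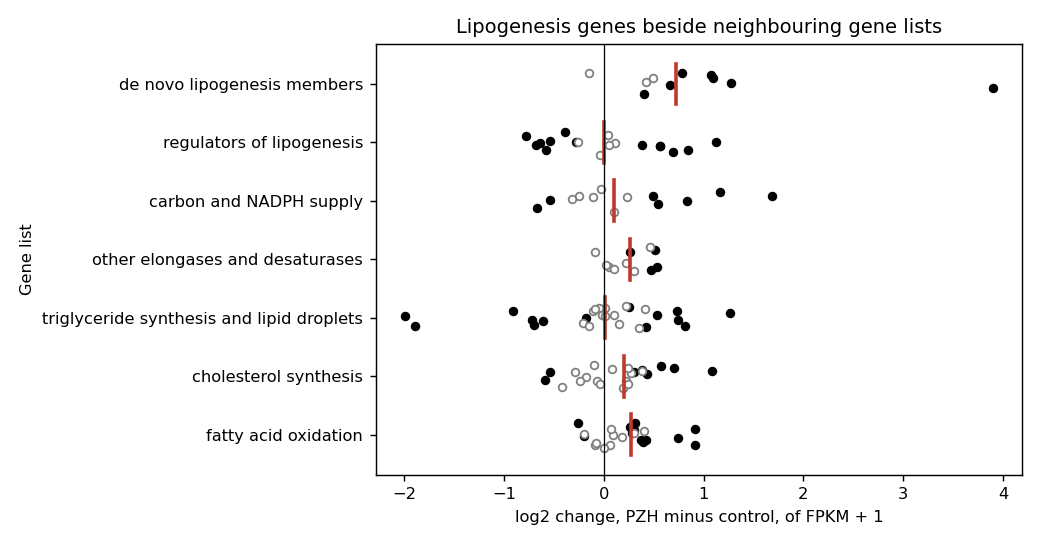
Each point is a gene's difference in log2(FPKM + 1) between the PZH and control groups, filled where adjusted p is under 0.05, with a red bar at the list's median and vertical jitter only for legibility. The lipogenesis genes have a median of 0.72, the other lists lie between 0.00 and 0.28, and Plin2 and Hilpda are the points near -2.

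Cholesterol synthesis, the pathway of the related factor SREBP-2, and fatty acid oxidation were described in the same way. Srebf2, the gene of SREBP-2, is in the regulator list and is named after its values were seen. It fell by 0.58 (adjusted p = 0.011), and by 0.41 after median-ratio scaling (adjusted p = 0.037). Of 22 cholesterol genes, 6 were higher and 2 lower (7 and 1 after median-ratio scaling), with a median of 0.21. Sc5d rose by 1.09, Stard4 by 0.70 and Mvk by 0.58, and Sqle fell by 0.59. After median-ratio scaling Sqle was at -0.40 and did not pass (adjusted p = 0.086). Of 22 oxidation genes, 10 were higher and 2 lower (11 and 0 after median-ratio scaling), with a median of 0.28. Ppara, the regulator of oxidation, rose by 0.92, Acaa1b by 0.91 and Hadh by 0.75, and Bdh1 fell by 0.26 and Acadl by 0.20. Neither fall passed after median-ratio scaling, with Bdh1 at -0.07 (adjusted p = 0.44) and Acadl at -0.007 (adjusted p = 0.95). Whether these lists differ from the lipogenic members was not tested.

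Hepatocyte zone markers moved with the groups as well, while over all genes 12.7% were called higher and 32.1% lower. Of 7 pericentral genes, 4 were higher (5 after median-ratio scaling), Cyp2e1 (4.71-fold by the means) and Cyp1a2 (4.22-fold) among them, and the summed FPKM of the 7 was 878 to 1865 under PZH and 246 to 438 in controls. Glul, a defining gene of that zone, differed by 0.32 and did not pass (adjusted p = 0.11), but after median-ratio scaling it differed by 0.50 and passed (adjusted p = 0.010). Of 6 periportal genes 2 were higher (3 after median-ratio scaling), and the sums of 1130 to 1523 and 1149 to 1349 FPKM overlapped. The other marker lists had 2 higher and 1 lower of 8 for stellate cells and fibroblasts (sums 296 to 387 against 212 to 336), 2 and 2 of 8 for macrophages and leukocytes (269 to 433 against 228 to 368), 0 and 0 of 4 for cholangiocytes (64.6 to 130 against 88.2 to 148) and 0 and 2 of 5 for endothelial cells (38.7 to 58.4 against 53.3 to 61.4). After median-ratio scaling these counts were 5 and 1 for stellate cells and fibroblasts, 3 and 0 for macrophages and leukocytes, 1 and 0 for cholangiocytes and 1 and 1 for endothelial cells. Their part in the changes of the lipogenic genes was not tested.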

How the data were processed

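Liver RNA of 6 PZH and 6 control mice was sequenced as ribosomal RNA-depleted, strand-specific libraries with paired reads of 150 bp. The authors trimmed reads with Trimmomatic, aligned them by HISAT2 version 2.1.0 to GRCm38 and used StringTie version 1.3.5 with Ensembl release 95 for assembly. The authors deposited FPKM per transcript and mouse, already scaled by transcript length and library size. Every listed transcript had a sum of at least 1 FPKM over the 12 mice. Read counts were not recovered, since only 18.7% to 26.6% of low values fell on whole fragment steps, so depth and counting intervals are not given. The precision is the spread between the 6 mice of a group. The lncRNA table was not used here.

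FPKM of protein-coding transcripts were summed per gene by GENCODE M21, which held 29876 of 29883 transcripts. Values were put on log2(FPKM + 1) and compared with limma 3.58.1 in R 4.3.3, with default variance moderation over all genes or all transcripts and Benjamini-Hochberg adjustment (threshold 0.05). Thrsp ratios and transcript shares were compared by two-sided exact permutation of the 12 mice, with 0.0022 as the smallest p. Lists were described by counts and medians. Named were all members, the 3 largest called changes in each direction of each list, the 5 genes most like Thrsp and member transcripts with a mean of at least 1 FPKM in either group, of which 2 list genes are not reported here. The members and lists were chosen with earlier results of these data known. The fit was tested on simulated data for the gene comparison (14188 genes, 200 changed by 1 on the log2 scale): 91% were recovered and 8 unchanged genes were called. The changed genes were drawn from those with a control mean log2(FPKM + 1) above 1, and the noise was independent between genes. Far more genes were called in the real data, so these figures describe the simulated setting only. Tried in turn were 0.1 as pseudocount, only features averaging at least 1 FPKM, median-ratio scaling, equal FPKM sums, a mean-variance trend, the mouse number as a block, 2-fold rules, each mouse left out, and, chosen after seeing the data, both mice with little Acly-207 left out. Tables and plots were made with pandas 2.3.3, numpy 2.4.6 and matplotlib 3.10.9 under Python 3.11.15. Promoters were taken from RefSeq.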

Additional observations from a re-analysis of the deposited data

Results flagged for a closer look

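Among 80 groups of 6 mice, the extreme mouse lay far from the rest in 15, and chance gives this in about 1 of 20 groups. The groups are not independent, since they share mice and some are transcripts of a flagged gene.

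Control 3 stood above the other controls in 5 of these. It had 92.5 FPKM of Fasn against 36.4 to 52.8, 82.7 of Acly against 42.1 to 53.0, and 2.05 of Pnpla3 against 0.488 to 0.880. At transcript level it had 85.4 FPKM of Fasn-201 against 33.2 to 48.2 and 25.3 of Acaca-201 against 17.3 to 20.1. Control 6 had 56.4 FPKM of Me1 against 39.4 to 42.9.

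The estimated makeup of Acly stood apart in 2 mice. In PZH 4 and control 1 Acly-207 made up 19.0% and 27.3% of the gene, Acly-203 was at 44.5 and 17.7 FPKM, and Acly-201 at 51.1 and 16.6. In the other mice Acly-203 reached at most 9.70 FPKM under PZH and 7.26 in controls. PZH 4 also had 3.53 FPKM of Acaca-206 against 2.21 to 2.58 in its group. Control 1 had 0.287 FPKM of Acacb-201 against 2.36 to 3.29. In control 2, Acaca-201 made up 59.2% of its gene against 76.0% to 78.9%.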

How the results depend on the processing

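The count of members called higher was 6 to 8 when each mouse was left out in turn, and 4 in place of 7 with a 2-fold change as well, by adjusted or unadjusted p. Under median-ratio scaling, 13 genes of the 6 lists were called lower in place of 20, and over all genes 2807 were higher and 2739 lower. The causes were not tested. With each mouse left out the counts were 6 to 8 for the permutation tests of the members, 6 to 9 for transcripts, 0 to 2 for transcript shares, 9 for the Thrsp ratios, 26 to 38 higher and 16 to 20 lower in the lists, and 1529 to 1891 higher and 3989 to 4624 lower over all genes. The only changed share, of Acaca-201, was also lost with PZH 4 and control 1 left out (0 shares changed).

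For the named genes, transcripts and shares, leaving out a mouse kept direction and side of the threshold in 820 values, ended the call in 47 and brought one about in 8. Signs turned only for values that had passed no test. Under median-ratio scaling these were Me1 (0.036), Me1-201 (0.029) and Acaca-206 (0.10). With a mouse left out, Acaca-208 lay between -0.052 and 0.21, Acaca-206 between -0.16 and 0.10 and Acly-201 between -0.67 and 0.95. The difference in the share of Fasn-201 lay between -1.33 and 1.14 percentage points and that of Acly-207 between -11.5 and 11.5, the highest without PZH 2 and PZH 4, and the latter was 0.768 with PZH 4 and control 1 left out.

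The groups share the mouse numbers 1 to 6. Deviations of same-numbered mice from their group means correlated between -0.078 and 0.093, so the numbers were not taken as pairs. With the number as a replicate block 6 members were called higher, Fasn being lost (adjusted p = 0.076), and 5 by sign-flip tests. Among the named genes Insig1 (adjusted p = 0.066) and Acadl (0.076) lost their calls too, and Srebf1-201 gained one (0.040). The block gave 7 transcripts, 9 Thrsp ratios, 0 changed shares and 32 higher and 18 lower genes in the lists. Depth per mouse is not known, and no healthy livers were compared.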
